A study of Mus musculus with 10 samples.

Results

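The genes described here are 10 genes of the unfolded protein response in mouse lung, namely Herpud1, Hspa5, Hsp90b1, Calr, Canx, Pdia3, Pdia4, Pdia6, Xbp1 and Ddit3. They were chosen by name for their role in endoplasmic reticulum (ER) stress and ER protein folding, except that Herpud1 was picked from its pattern in these same counts, so its values are given as a description without a test. All 10 were found among the 24059 gene symbols of the count table, and 9 passed the filter on low counts, which Ddit3 did not.

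Whole lungs came from female C57Bl/6 mice aged 14 weeks that had eaten a high-fat diet for 8 weeks, after which airway reactivity was measured and the lungs were perfused with PBS. The FO group (5 mice) ate fat from menhaden fish oil with some corn oil, and the CO group (5 mice) ate mostly saturated fat from coconut oil, with olive oil and corn oil. Each sample is labelled as a separate mouse, so the spread within a group is a spread between mice. The comparison asks how the fat in the diet relates to lung gene expression.

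The ER is where secreted and membrane proteins are folded, with the help of chaperones, lectins that hold glycoproteins, and enzymes that form disulfide bonds. When unfolded proteins build up there, the sensors IRE1, PERK and ATF6 start the unfolded protein response, which raises chaperone transcription, slows translation and feeds ER-associated degradation, the route by which misfolded proteins are returned to the cytosol and destroyed. In lung, alveolar type 2 cells, which secrete surfactant, and plasma cells, which secrete antibody, carry a heavy load of ER folding.

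Depth was low and uneven. Between 229766 counts (CO mouse 1) and 1124963 counts (FO mouse 2) fell on genes, but the ribosomal precursor Rn45s took 21.8% of them in CO mouse 4 and from 51.7% to 87.0% in the other 9 mice. Outside Rn45s, 45177 counts were left in CO mouse 1, 46470 in FO mouse 3, 55639 in CO mouse 2 and 91338 in FO mouse 5, against 136211 to 473254 in the other 6 mice. A gene with 3 counts, the floor used for a mouse, stood for 0.00664% of the counts outside Rn45s in CO mouse 1 and for 0.000634% in FO mouse 2.

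The libraries of FO mouse 2 and CO mouse 5 stood apart through the nuclear RNA Malat1, which made up 8.53% and 6.15% of their counts outside Rn45s and at most 1.05% in any other mouse. CO mouse 4 had by far the lowest share of Rn45s. Results that rest on these mice are therefore also given without them. The 10 genes together held from 107 counts in CO mouse 1 to 2261 counts in FO mouse 2, which was 0.237% to 0.478% of the counts outside Rn45s. That share ranged from 0.325% to 0.478% in FO mice and from 0.237% to 0.466% in CO mice, so the groups overlapped widely.

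Herpud1 encodes an ER membrane protein with a ubiquitin-like domain that helps to assemble the ER-associated degradation machinery. Its gene lies on chr8:94386429-94395371 on the plus strand (GRCm38). Its counts were 36, 86, 16, 29 and 23 in FO mice 1 to 5 and 2, 5, 18, 29 and 15 in CO mice 1 to 5. As CPM, which are counts relative to the TMM library size, these were 41.4, 65.7, 103.2, 35.8 and 75.3 for FO mice 1 to 5 and 13.3, 26.6, 39.4, 30.4 and 19.7 for CO mice 1 to 5. FO mouse 3 was the highest and CO mouse 1 the lowest, and every FO mouse lay above the CO median. The groups still overlapped, because FO mouse 4 lay below CO mouse 3.

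The mean level of Herpud1 was 64.3 ± 27.3 CPM in FO mice and 25.9 ± 10.02 CPM in CO mice (SD, n = 5 per diet), a fitted 2.20-fold difference or 1.13 on the log2 scale. These values belong to the pattern for which the gene was picked. The extremes rest on few counts, since the 16 counts of FO mouse 3 allow 59.0 to 167.6 CPM and the 2 counts of CO mouse 1 allow 1.61 to 48.0 CPM (95% exact Poisson intervals, which cover counting error only). Without FO mouse 2 and CO mouse 5 the log2 fold change was 0.90, the lowest value of 16 alternatives, and without CO mouse 4 it was 1.21. An antisense gene, Gm15890, overlaps Herpud1, and a strand setting of the counting is not given in the sources used here, so reads of the pair could not be told apart.

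In whole lung, more cells that express a gene and more of its RNA per cell cannot be told apart. Markers of neutrophils also differed between the diets. All 4 markers of the list had counts, with S100a9 the most abundant in FO mice and S100a8 in CO mice. Their sum was 290.0, 45.9, 129.0, 74.1 and 163.7 CPM in FO mice 1 to 5 against 26.6, 42.6, 37.2, 31.5 and 36.7 CPM in CO mice 1 to 5. Every FO mouse was above every CO mouse in this sum. Herpud1 had 41.4, 65.7, 103.2, 35.8 and 75.3 CPM in the same FO mice 1 to 5. The part of these cells in the level of Herpud1 was not tested. In the fit of all genes with any count, 1 marker each of macrophages (Cd68), cardiac muscle (Tnnt2) and erythroid cells (Alas2) was also called higher in FO mice at an unadjusted p under 0.05 (edgeR adjusted p = 0.905 for each), on 18 and 3, 99 and 27, and 190 and 54 counts in FO and CO mice. These 3 were named after their values had been seen. In the main edgeR test Alas2 was not called (log2 fold change 0.97, unadjusted p = 0.122). Of the 99 Tnnt2 counts in FO mice, FO mouse 2 held 66.

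Herpud1 was also set against its fellow genes within each mouse, which needs no library size. These ratios and shares use the Herpud1 counts from which the gene was picked, so they are a description and no further evidence. For every 100 counts of Hspa5 there were 24.5, 19.7, 32, 19.1 and 23.2 counts of Herpud1 in FO mice 1 to 5 and 11.8, 17.9, 13.7, 20.4 and 9.26 in CO mice 1 to 5. CO mouse 4 reached the FO range, and the other 4 CO mice lay below all FO mice. As a share of the counts of all 10 genes, Herpud1 made up 4.42%, 3.80%, 7.24%, 3.50% and 7.57% in FO mice 1 to 5 and 1.87%, 2.65%, 2.83%, 3.30% and 1.41% in CO mice 1 to 5. Here the lowest FO mouse, FO mouse 4 (95% exact Clopper-Pearson interval 2.36% to 4.99%), and the highest CO mouse, CO mouse 4 (2.22% to 4.71%), were within counting error of each other.

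**Figure D1:**
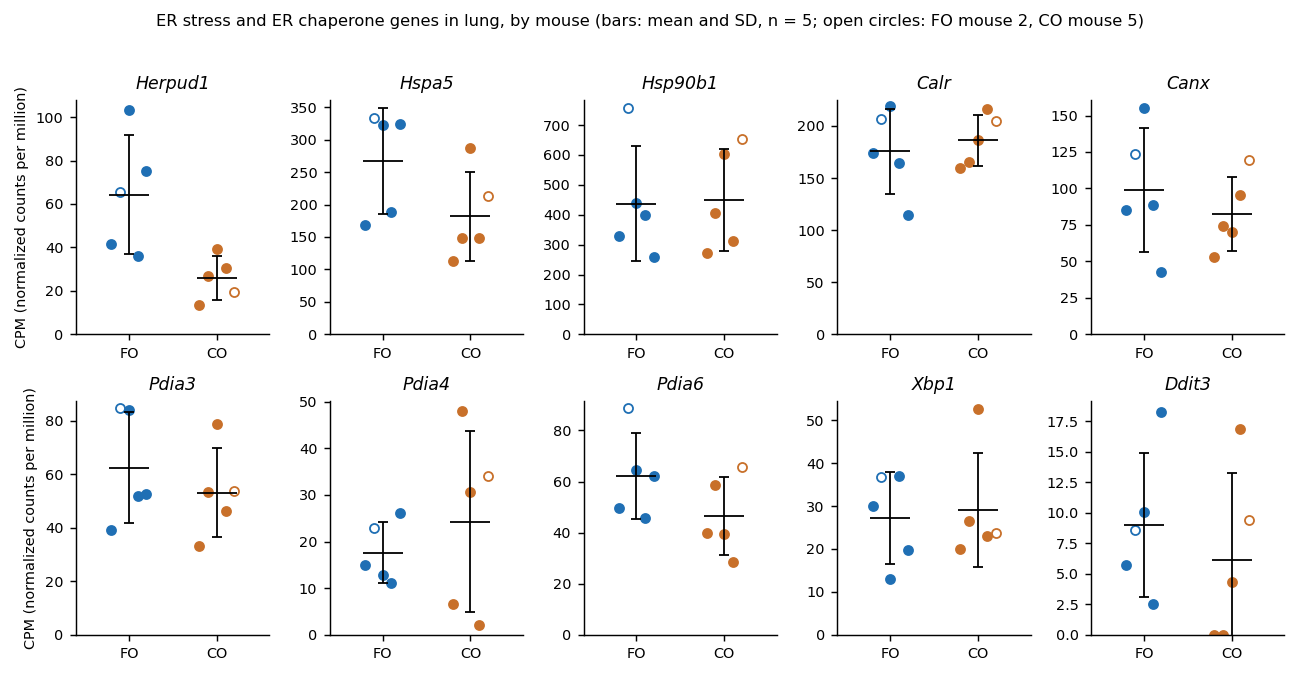
Normalized counts (CPM, y axis) of the 10 genes in the FO and CO groups, 1 point per mouse, with bars for the mean and SD of 5 mice and open circles for FO mouse 2 and CO mouse 5, the mice high in Malat1. All FO mice lie above the CO median for Herpud1, Hspa5 and Pdia6 and below it for Pdia4, and the groups overlap for all 10 genes. The CPM of Ddit3 use the library sizes of the fit of all genes with any count.

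Hspa5 encodes BiP, the HSP70 chaperone of the ER lumen, which binds unfolded chains and holds the stress sensors inactive (chr2:34772090-34776529, plus strand). It had 169.2, 333.2, 322.6, 187.8 and 324.2 CPM in FO mice 1 to 5 and 113.0, 149.1, 287.0, 149.1 and 212.6 CPM in CO mice 1 to 5. FO mice 2, 3 and 5 were the highest of all 10, CO mouse 3 came next, and all 5 FO mice exceeded the CO median while 2 of them lay below CO mice 3 and 5. The means were 267.4 ± 81.5 and 182.2 ± 68.7 CPM (SD, n = 5 per diet).

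Between the diets Hspa5 differed by 0.51 on the log2 scale (standard error 0.28, 95% interval -0.07 to 1.09, edgeR adjusted p = 0.998 by Benjamini-Hochberg). A two-sided exact permutation test of the same 10 mice gave p = 0.111. Neither test thus called the difference (edgeR unadjusted p = 0.081), and the interval runs from a 0.953-fold to a 2.13-fold level in the FO group. Without the Malat1-rich mice the value was 0.44. It was 0.65 without FO mouse 1 and 0.73 without CO mouse 3, and leaving out either mouse moved the gene past the unadjusted edgeR threshold of 0.05. Both are mice whose Hspa5 level lay toward that of the other diet.

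Hsp90b1 encodes GRP94, the HSP90 chaperone of the ER, which folds integrins and Toll-like receptors (chr10:86690841-86705444, minus strand). It had 329.1, 757.3, 438.7, 399.0 and 258.7 CPM in FO mice 1 to 5 and 272.5, 404.8, 602.4, 313.9 and 652.3 CPM in CO mice 1 to 5. The highest mouse of each diet was the one rich in Malat1. The means were 436.6 ± 192.0 and 449.2 ± 170.5 CPM (SD, n = 5 per diet), and the log2 fold change of -0.05 had a 95% interval of -0.67 to 0.58. The sign was not stable, since the value ran from -0.36 without FO mouse 2 to 0.13 without CO mouse 5, and it was -0.18 without both.

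Calr and Canx encode calreticulin and calnexin, the soluble and the membrane-bound lectin chaperone that hold newly made glycoproteins until they fold. Calr (chr8:84842088-84846931, minus strand) had 173.8, 206.3, 219.4, 164.3 and 114.6 CPM in FO mice 1 to 5 and 159.5, 165.1, 186.2, 216.3 and 204.7 CPM in CO mice 1 to 5. The CO mice lay inside the FO range, FO mouse 5 was the lowest, and the coefficient of variation over the 10 mice was 17.9%. The means were 175.7 ± 41.0 and 186.4 ± 24.5 CPM (SD, n = 5 per diet). The log2 fold change of -0.11 (standard error 0.22) had a 95% interval of 0.674-fold to 1.28-fold, the narrowest among the 10 genes, and was 0.00 without FO mouse 5 and -0.15 without the Malat1-rich mice.

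Canx (chr11:50293957-50325673, minus strand) had 85.2, 123.8, 154.8, 88.9 and 42.6 CPM in FO mice 1 to 5 and 53.2, 74.6, 70.1, 95.5 and 119.4 CPM in CO mice 1 to 5. FO mouse 3 was the highest and FO mouse 5 the lowest, so that the FO group enclosed the CO group. The log2 difference was 0.18 (standard error 0.30, 95% interval -0.46 to 0.81), or 0.20 without the Malat1-rich mice. With 1 mouse left out it ran from 0.00 (without FO mouse 3) to 0.35 (without CO mouse 5). As with Calr, FO mice 3 and 5 were the extremes of their group.

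Pdia3, Pdia4 and Pdia6 encode protein disulfide isomerases of the ER, and the product of Pdia3 works together with calreticulin and calnexin on glycoproteins. Pdia6 (chr12:17266589-17284785, plus strand) had 49.5, 88.6, 64.5, 45.7 and 62.2 CPM in FO mice 1 to 5 and 39.9, 58.6, 39.4, 28.3 and 65.6 CPM in CO mice 1 to 5. All 5 FO mice were above the CO median, but CO mouse 5 was higher than 4 of the FO mice and CO mouse 2 higher than FO mice 1 and 4. The means of 62.1 ± 16.9 and 46.4 ± 15.3 CPM (SD, n = 5 per diet) gave a fitted 1.36-fold difference, or 0.44 on the log2 scale (standard error 0.30, 95% interval -0.19 to 1.07). The edgeR unadjusted p was 0.159 (adjusted 0.998) and a two-sided exact permutation test gave p = 0.159, so neither test called the difference. It was 0.47 without the Malat1-rich mice, 0.22 without FO mouse 2 and 0.68 without CO mouse 5.

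Pdia3 (chr2:121413902-121438687, plus strand) had 39.1 to 84.8 CPM in FO mice and 33.2 to 78.9 CPM in CO mice, with means of 62.4 ± 20.7 and 53.1 ± 16.6 CPM (SD, n = 5 per diet). Its log2 fold change of 0.17 (standard error 0.29) turned to -0.06 without both Malat1-rich mice and to -0.04 without FO mouse 2. Pdia4 (chr6:47796141-47813512, minus strand) was counted 114 times in all, and 6 mice had fewer than 10 counts. The FO mice ranged from 11.1 to 26.2 CPM, inside the CO range of 2.10 to 47.9 CPM, and all lay below the CO median. The CO group held both the highest mouse, CO mouse 2, and the lowest, CO mouse 4 with 2 counts. Pdia4 had a log2 fold change of -0.35 with a 95% interval of -1.48 to 0.77. It was -0.81 without CO mouse 4, the only alternative of 10 with the gene past the unadjusted threshold. Closer to 0 were the values without CO mouse 2 (-0.15) and with a replicate block (-0.12). Pdia3 and Pdia6 overlap Catsper2 and Atp6v1c2 on the opposite strand, which had 38 and 68 counts in all, so some reads could have been shared.

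Xbp1 and Ddit3 encode transcription factors of the response, the IRE1 target XBP1 and CHOP, which acts below PERK and promotes cell death under lasting stress. Xbp1 (chr11:5520641-5525993, plus strand) had 29.9, 36.7, 12.9, 37.1 and 19.6 CPM in FO mice 1 to 5 and 19.9, 26.6, 52.6, 23.1 and 23.6 CPM in CO mice 1 to 5. CO mouse 3 stood above all others, and the remaining CO mice lay inside the FO range. The diets differed by 0.03 on the log2 scale (95% interval -0.67 to 0.72), a value that changed sign in 6 of the 10 fits that left out 1 mouse, with 0.37 without CO mouse 3 and -0.11 without FO mouse 4. Counts per gene do not separate the spliced from the unspliced Xbp1 message, the step at which IRE1 acts.

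Ddit3 (chr10:127290793-127296291, plus strand) had 5, 11, 2, 2 and 6 counts in FO mice 1 to 5 and 0, 0, 2, 16 and 7 counts in CO mice 1 to 5. The 51 counts were split almost evenly between the diets, and 8 mice had fewer than 10. In the fit of all genes with any count the log2 difference was -0.08 (standard error 0.56), with a 95% interval from 0.443-fold to 2.02-fold, so a difference was not detectable at this depth. The mean levels, 9.01 ± 5.90 CPM in FO mice and 6.12 ± 7.14 CPM in CO mice (SD, n = 5 per diet), differed in the other direction from the fit. These CPM use the library sizes of that fit, which differ from those used for the other genes. The fitted value was -0.10 without the Malat1-rich mice but 0.66 without CO mouse 4, which holds 16 of the 25 counts of its group. Mars, on the opposite strand, overlaps Ddit3 and had 53 counts in all.

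Across the table, edgeR tested 2438 genes and called 71 at an unadjusted p under 0.05 (2.91%), of which 41 were higher (1.68%) and 30 lower (1.23%) in the FO group. None had an adjusted p under 0.05 in this edgeR test, while DESeq2 called 62 unadjusted and 1 after adjustment. That 1 gene was the neutrophil marker S100a9, which edgeR also called after adjustment in the fit of all genes with any count, without both Malat1-rich mice and without FO mouse 2. The count of 71 rose to 154 without FO mouse 2, of which 52 were higher. Of the 8 genes tested beside Herpud1, 0 were called by edgeR and 0 by DESeq2. Their log2 fold changes lay between -0.35 (Pdia4) and 0.51 (Hspa5), 5 above and 3 below 0, with a median of 0.10, against a median of 0.00 and 50.6% above 0 over all genes tested. None of these 8 had groups that did not overlap, a pattern found in 0.410% of all genes tested.

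**Figure D2:**
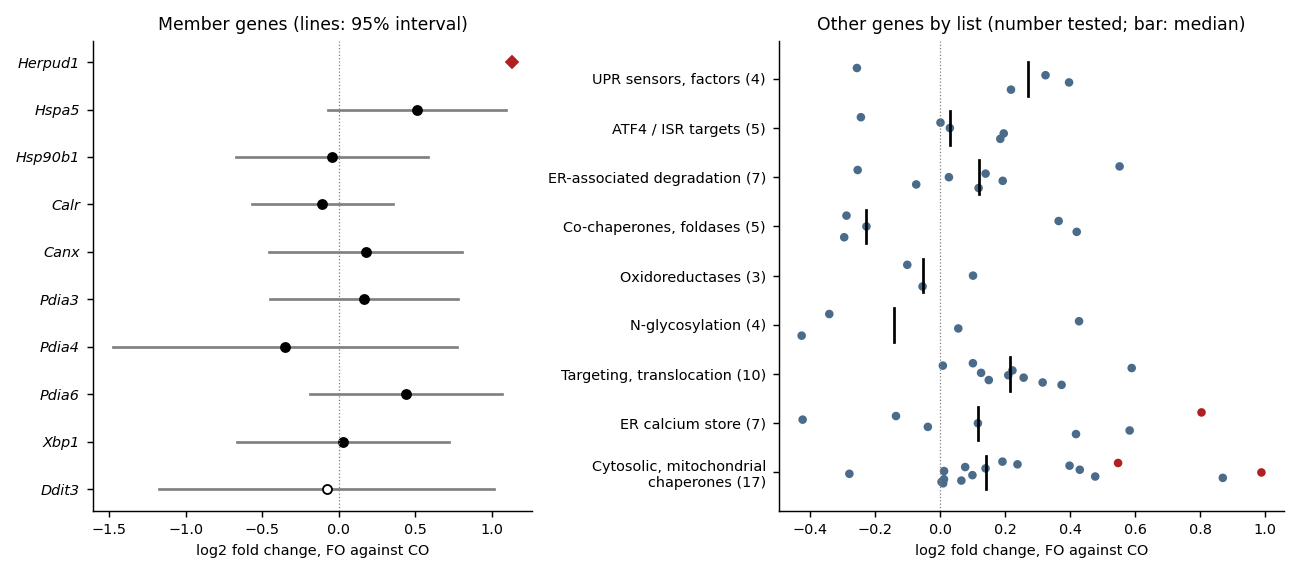
Left, log2 fold change of FO against CO (x axis) of each of the 10 genes with its 95% interval, Herpud1 as a diamond without an interval because its pattern chose it, and Ddit3 as an open circle from the fit of all genes with any count. Right, log2 fold changes of the other genes tested in 9 pathway lists, with bars for medians and red points for Tmem66, Bag3 and Cct7, called at an unadjusted p under 0.05.

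Levels of different genes were compared as CPM per kilobase of exon, averaged over the 10 mice. Hsp90b1 was highest with 109.8, followed by Calr with 62.9 and Hspa5 with 53.1. Hsp90b1 exceeded Calr in 10 of 10 mice and Hspa5 exceeded Canx in 10 of 10, whereas Calr exceeded Hspa5 in only 6 mice. Canx and Pdia3 followed with 19.4 and 18.4 CPM per kilobase. The place of Herpud1 depended on the diet, as follows from the pattern for which it was picked. It had 27.6 CPM per kilobase in FO mice, where Canx had 21.1 and Pdia3 19.9, and it exceeded Pdia3 in 4 of 5. In CO mice it had 11.1, where Canx had 17.6, Pdia3 16.9 and Pdia6 12.4, and it exceeded Pdia3 in 0 of 5. Hspa5 was level with Calr in FO mice (63.2 and 61.0) and lower in CO mice (43.1 and 64.7). Over all mice Pdia6 had 14.5, above Pdia4 in 8 of the mice. Pdia4 (8.74) and Xbp1 (8.68) could not be ordered, and Ddit3 was lowest with 4.42, on the library sizes of the fit of all genes with any count. The 3 chaperones at the top were also the only ones of the 10 genes with 10 or more counts in each of the 10 mice, as 633 genes of the table had.

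Whether these genes varied together within a diet was measured by correlating deviations of log2 CPM from the diet mean over the 10 mice. The 36 pairs of the 9 genes that passed the filter, Herpud1 among them, had a median Pearson r of 0.35, with 31 above 0. Pairs of all genes tested had a median of -0.00, with 1484036 of 2970703 above 0. Pairs of the 633 genes just mentioned had a median of 0.04, with 105466 of 200028 above 0. The closest pair was Calr and Canx, the lectin chaperones, with r = 0.95 (exact permutation test within diets, p = 0.00111, adjusted over 36 pairs 0.040) and Spearman rho = 0.87 (same test, p = 0.00465, adjusted 0.122). It kept r = 0.85 without the 2 mice farthest from the median of Calr and 0.96 without the Malat1-rich mice. No other pair without Herpud1 had an adjusted p under 0.05 for r, and none had for rho.

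The next pair, Hspa5 and Pdia3, had r = 0.86 (exact permutation p = 0.00535, adjusted 0.096) and rho = 0.88 (p = 0.00681, adjusted 0.122), with r = 0.76 without the 2 farthest mice. Herpud1, given without a test, had r = 0.78 with Hspa5 and rho = 0.79, and r was 0.64 without the 2 farthest mice and 0.88 without the Malat1-rich mice. With Pdia3 it had r = 0.77 and rho = 0.72. Herpud1 deviated little with the other genes, at r = 0.26 with Hsp90b1, 0.25 with Calr and -0.12 with Xbp1. The points of each pair share their library, and with it the depth and the normalization.

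**Figure D3:**
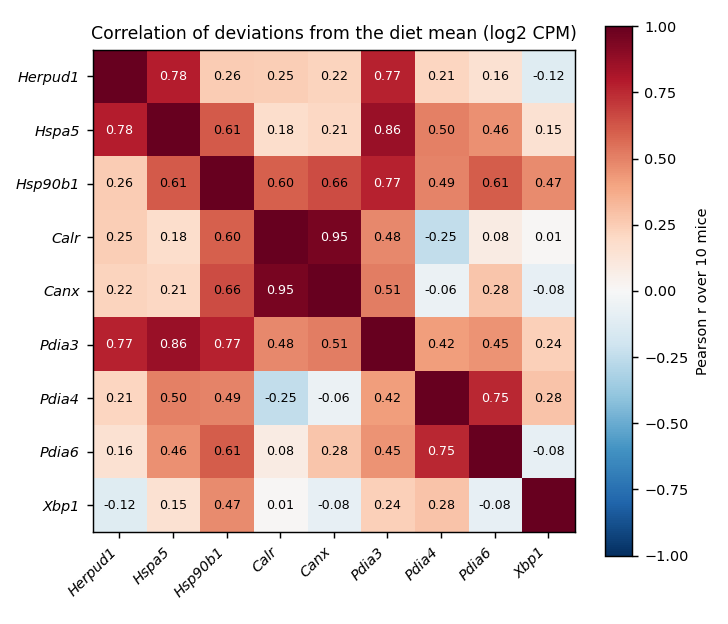
Pearson r over 10 mice between deviations of log2 CPM from the diet mean, for each pair of the 9 genes that passed the filter, coloured from -1 (blue) to 1 (red). Calr with Canx (0.95) and Hspa5 with Pdia3 (0.86) are the highest, and Pdia4 with Calr (-0.25) is the lowest.

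These deviations were also set against the Malat1 share of each library, and none of the 8 genes tested beside Herpud1 had an adjusted p under 0.05. The mean deviation of the 8 genes other than Herpud1 had r = 0.72 with that of the log2 Malat1 share (exact permutation within diets, p = 0.030, adjusted over 10 such tests 0.152) and rho = 0.64 (p = 0.072, adjusted 0.297). Without the 2 mice farthest on the Malat1 share, r was 0.41, so the relation rests largely on them. Hsp90b1 had r = 0.79 (exact permutation p = 0.015, adjusted 0.150; rho = 0.58, p = 0.112, adjusted 0.297), which fell to 0.41 without those 2 mice. In contrast, r of Xbp1 rose from 0.45 to 0.73 without them. For Herpud1, r was 0.03 and rho 0.19.

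Among the same 633 well-counted genes, those whose deviations were most like those of Herpud1 over the 10 mice were Hspa5 (r = 0.78), the cytosolic co-chaperone Dnaja2 (r = 0.76), the class I light chain B2m (r = 0.72), the actin-severing factor Dstn (r = 0.68) and Gdi2, a regulator of Rab proteins (r = 0.68). Their Spearman rho lay between 0.67 (B2m) and 0.81 (Dnaja2). Those most like the mean of the other 8 genes were the cohesin subunit Smc1a (r = 0.92), the ribosome receptor of the rough ER Rrbp1 (r = 0.90), the kinase Rock2 (r = 0.89), the integrin Itgb1 (r = 0.88) and the splicing cofactor Son (r = 0.88). All 10 were picked for high r, so no test is attached. With the Malat1 share the latter 5 had r from 0.75 (Smc1a) to 0.86 (Son), but without the 2 mice farthest on that share r was 0.17 (Itgb1) to 0.53 (Son).

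The wider pathway was described with 8 lists of ER genes written by name, which held 166 genes, of which 164 were found and 45 passed the filter. Of these 45, 1 was called (2.22%, against 2.91% of all genes tested). Their median log2 fold change was 0.12, and 31 were above 0. Several genes of the response were listed at 0 in all 10 mice, including Atf4, Derl1, Creld2 and Tmbim6. Housekeeping genes such as the chaperonin subunit Cct5 were at 0 too, so a 0 here says nothing about expression.

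Of 16 UPR sensors and transcription factors, 4 passed the filter, 0 were called, and their median log2 fold change was 0.27. The most abundant was Atf5, a transcription factor of the integrated stress response, with 157.0 ± 37.9 CPM in FO mice and 121.3 ± 26.7 CPM in CO mice (log2 fold change 0.40, standard error 0.24). Without both Malat1-rich mice Atf5 was called, higher in FO mice, at 0.54 (edgeR adjusted p = 0.999), and without FO mouse 2 at 0.51 (edgeR adjusted p = 0.670). Nfe2l1, which controls proteasome genes, had -0.26 (standard error 0.24). The sensors themselves were near the limit of counting. Ern1 (IRE1) had 3 counts in FO mice and 1 in CO mice, Eif2ak3 (PERK) 21 and 15, and Atf6 92 and 50, of which FO mouse 2 held 63 and CO mouse 5 held 32.

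Of 20 targets of ATF4 and the integrated stress response, 5 passed, 0 were called, and the median was 0.03. Txnip, which binds thioredoxin, had 226.9 ± 26.1 CPM in FO mice and 265.4 ± 95.8 CPM in CO mice, and Nupr1, a stress-induced chromatin protein, had 76.0 ± 21.5 and 72.2 ± 21.97 CPM (SD, n = 5 per diet). Trib3, a pseudokinase induced by ATF4 and CHOP, had 10 counts in FO mice and 8 in CO mice.

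Of 28 genes of ER-associated degradation, the process Herpud1 serves, 7 passed, 0 were called, and the median was 0.12. Vcp, the ATPase that pulls proteins out of the ER membrane, had 170.2 ± 6.21 CPM in FO mice and 176.4 ± 35.8 CPM in CO mice, and its partner Vimp had 70.8 ± 34.9 and 60.1 ± 28.1 CPM (SD, n = 5 per diet). On the log2 scale Vcp differed by -0.07 (standard error 0.21) and Vimp by 0.19 (standard error 0.35). Sel1l and Syvn1, the core of the ubiquitin ligase complex that Herpud1 joins, had 0.12 in the main test and 0.15 in the fit of genes with any count, the latter on 17 and 11 counts. The paralog Herpud2 had 29 counts in FO mice and 26 in CO mice. Sel1l, Syvn1, Herpud2, the sensors and Trib3 were named for their role, outside the rule for named genes, after their values had been seen.

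Among 25 co-chaperones and foldases, 5 passed and 0 were called, with a median of -0.23. Over the 22 of them with any count the median was 0.40, so the direction of the list was not stable. Sec63, which recruits BiP to the translocon, differed by -0.23 on the log2 scale (standard error 0.24) and Serp1, which stabilizes membrane proteins, by -0.29 (standard error 0.32). Dnajc1, a BiP co-chaperone, was called, lower in FO mice, without both Malat1-rich mice (-0.64, edgeR adjusted p = 0.999) and without FO mouse 2 (-0.68, edgeR adjusted p = 0.670). Among 20 oxidoreductases 3 passed and 0 were called. P4hb, the founding disulfide isomerase, had 128.1 ± 45.9 CPM in FO mice and 138.0 ± 52.4 CPM in CO mice, and Qsox1, a sulfhydryl oxidase, had 76.5 ± 16.3 and 89.6 ± 38.4 CPM (SD, n = 5 per diet). Among 20 genes of N-glycosylation 4 passed and 0 were called, with Rpn1 and Magt1 of the oligosaccharyltransferase at 0.06 (standard error 0.26) and -0.34 (standard error 0.31). In this list Magt1 was called, lower, without FO mouse 2 (-0.68, edgeR adjusted p = 0.670) and Rpn2, higher, without FO mouse 5 (0.75, edgeR adjusted p above 0.999). Dnajc1 and Rpn2 were named after their values had been seen.

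Of 22 genes that target proteins to the ER and move them across its membrane, 10 passed and 0 were called. All 10 had log2 fold changes above 0, from 0.01 (Srp68) to 0.59 (Srp19), with a median of 0.22, against 50.6% above 0 over all genes tested. The translocon component Sec62 had 121.6 ± 32.9 CPM in FO mice and 106.0 ± 18.1 CPM in CO mice, and Srp14 of the signal recognition particle had 107.5 ± 25.1 and 93.8 ± 17.5 CPM (SD, n = 5 per diet). The smallest unadjusted edgeR p of the 10 was 0.058, for Srp19 (adjusted 0.998). Srp19 had 30.8 ± 7.25 CPM in FO mice and 21.3 ± 5.07 CPM in CO mice. Without CO mouse 4 the signal peptidase subunit Spcs2 was called, higher in FO mice (1.06, edgeR adjusted p above 0.999). Srp68, Srp19 and Spcs2 were named after their values had been seen.

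The only call in the 8 ER lists was Tmem66 (also Saraf), an ER protein that limits store-operated calcium entry, among 7 of 15 genes of the ER calcium store that passed. It had 43.7, 38.2, 38.7, 34.6 and 42.6 CPM in FO mice 1 to 5 and 0, 26.6, 17.5, 34.6 and 19.7 CPM in CO mice 1 to 5. CO mouse 4 was level with FO mouse 4, and the other CO mice were lower than all FO mice. On the log2 scale the difference was 0.80 (standard error 0.35, edgeR adjusted p = 0.998), and a two-sided exact permutation test gave p = 0.016. Since Tmem66 was picked by its edgeR call in the same mice, this exact p repeats the selection and is no further evidence. The edgeR call was lost without FO mouse 1 (log2 fold change 0.76), FO mouse 3 (0.80), FO mouse 5 (0.79), CO mouse 1 (0.64), CO mouse 3 (0.73) or CO mouse 5 (0.75), and the gene failed the filter without both Malat1-rich mice. The most abundant genes of this list, the calcium-binding proteins Calu and Sdf4, had log2 fold changes of 0.12 (standard error 0.28) and -0.14 (standard error 0.30).

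Chaperones outside the ER served for comparison. Of 27 cytosolic and mitochondrial chaperones, 17 passed, 16 were above 0, the median was 0.14, and 2 were called, both higher, against 50.6% above 0 and 2.91% called over all genes tested. Leaving out 1 mouse gave from 0 calls (without CO mouse 5) to 3, and 1 was left without both Malat1-rich mice. Hsph1 was not called in the main test (0.87). It was called, higher, with DESeq2 (0.93, adjusted p = 0.9997), all genes with any count (0.88, edgeR adjusted p = 0.905) and a replicate block (1.09, edgeR adjusted p = 0.997). The same held without FO mouse 1 (1.07), FO mouse 4 (0.99) or CO mouse 3 (1.24), and for Dnaja1 without CO mouse 3 (0.89). Both genes were named after their values had been seen. Bag3, a co-chaperone of HSP70 in selective autophagy, had 20.7, 29.8, 71.0, 32.1 and 36.0 CPM in FO mice 1 to 5 and 39.9, 16.0, 13.1, 17.8 and 10.5 CPM in CO mice 1 to 5, with FO mouse 3 far above the rest and CO mouse 1 inside the FO range. Bag3 differed by 0.99 on the log2 scale (standard error 0.39, edgeR adjusted p = 0.998), with p = 0.063 in a two-sided exact permutation test. The edgeR call was lost without FO mouse 3 (log2 fold change 0.77) or CO mouse 5 (0.80), and the gene failed the filter without FO mouse 2 and without both Malat1-rich mice.

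Cct7, a subunit of the cytosolic chaperonin, had 150.7, 159.7, 174.2, 143.3 and 203.0 CPM in FO mice 1 to 5 and 152.8, 106.5, 87.6, 127.0 and 98.4 CPM in CO mice 1 to 5. CO mouse 1 alone reached the FO range. Cct7 differed by 0.55 on the log2 scale (standard error 0.22, edgeR adjusted p = 0.998), with p = 0.024 in a two-sided exact permutation test. Cct7, like Bag3, was picked by its edgeR call in the same mice, so the exact p of each repeats that selection and is no further evidence. The edgeR call was lost without FO mouse 5 (log2 fold change 0.46), CO mouse 2 (0.51), CO mouse 3 (0.46) or CO mouse 5 (0.50). The most abundant gene of the list, Hsp90ab1, which encodes a cytosolic HSP90, had 1327 ± 337 CPM in FO mice and 1313 ± 400 CPM in CO mice (SD, n = 5 per diet).

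The filter removed most genes of these lists, so calls were also counted in the fit of all 14161 genes with any count, of which 587 were called (4.15%). In the 8 ER lists 156 genes had a count and 7 were called (4.49%), 6 higher and 1 lower, close to the share over the table. Beside Tmem66 they were Atf3, Dnajb9, Derl2, Sesn2 and Creld1, higher in the FO group, and Pdia5, lower, and all were named after their values had been seen.

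Atf3, a transcription factor induced by ATF4, had 12, 90, 1, 16 and 2 counts in FO mice 1 to 5 and 1, 7, 5, 4 and 15 in CO mice 1 to 5, so that FO mouse 2 held 90 of the 121 counts of its group. Atf3 differed by 1.02 on the log2 scale (edgeR adjusted p = 0.905). Dnajb9, a BiP co-chaperone and XBP1 target, had 0, 1, 0, 17 and 5 counts in FO mice 1 to 5 and 0, 1, 2, 1 and 0 in CO mice 1 to 5, with 17 of 23 FO counts in FO mouse 4. Derl2, a membrane protein of ER-associated degradation, had 9, 16, 0, 5 and 5 counts in FO mice 1 to 5 and 1, 1, 0, 4 and 2 in CO mice 1 to 5. These were spread over 4 of the FO mice. Sesn2 and Creld1 rested on 4 counts each, all in FO mice, and Pdia5 on 10 counts in FO mice and 20 in CO mice.

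Marker lists were used to describe the cells in these lungs, as sums of CPM. Alveolar type 2 markers had 2085 ± 610 CPM in FO mice and 1616 ± 633 CPM in CO mice (SD, n = 5 per diet), with all 5 present and Sftpc the most abundant. All 6 B and plasma cell markers had counts, summing to 43.0 ± 10.8 and 41.5 ± 18.7 CPM, with Ms4a1 and Pou2af1 the most abundant. The groups overlapped for both of these sums, and the part of these cells in the ER genes was not tested. Club cell markers summed to 1393 ± 326 and 1759 ± 769 CPM, ciliated to 63.1 ± 10.8 and 85.2 ± 22.6 CPM, and alveolar type 1 to 315.4 ± 82.4 and 336.0 ± 203.3 CPM, with Aqp5 at 0 in every mouse. These epithelial sums identify the tissue as lung in all 10 mice.

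Endothelial markers summed to 278.7 ± 96.5 CPM in FO mice and 280.8 ± 50.1 CPM in CO mice, fibroblast markers to 259.3 ± 26.6 and 247.5 ± 66.7 CPM, and macrophage markers to 77.3 ± 19.7 and 51.2 ± 23.4 CPM (SD, n = 5 per diet). Cardiac muscle markers had 91.2 ± 65.6 and 55.4 ± 48.1 CPM and were highest in FO mouse 2 and CO mouse 5, the mice rich in Malat1. The erythroid sum, 53.8 ± 10.1 and 32.8 ± 31.9 CPM, came from Alas2 alone, since the 4 globin genes of the list were at 0 in every mouse. Neutrophil markers, given beside Herpud1, were the only list of these 11 whose groups did not overlap.

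The 10 promoters were searched for known response elements. Promoters of RefSeq (GRCm38.p6), from 250 bases before to 50 bases after the start, were found for all 10 genes among 32851 promoters of 27025 genes, and both strands were read. The ER stress response element (ERSE), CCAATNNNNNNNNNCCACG, was found in 39 promoters (0.119%). It was present in 5 of the 10 genes, Hspa5, Hsp90b1, Pdia6, Calr and Canx, with a pair of matches in Hsp90b1. Without its last base, a form that includes every full match, it was found in 120 promoters (0.365%) and in 8 of the 10 genes, which adds Herpud1, Pdia3 and Pdia4.

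Herpud1 also held ERSE-II, ATTGGNCCACG, found in 12 promoters (0.0365%), and the C/EBP-ATF response element TTGCATCA, found in 294 promoters (0.895%), neither of which was in the other 9 genes. The UPR element, TGACGTG, was found in 661 promoters (2.01%) and among the 10 genes only in Hspa5. The promoters of Xbp1 and Ddit3 held none of these letters within the 300 bases. A match is a description of the sequence and not evidence that a factor binds there.

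The matched stretches are shown with 8 flanking bases so that the shared spacing and the differing spacers can be seen, read 5′ to 3′ on the strand that carries the motif, from RefSeq GRCm38.p6. Capitals mark the fixed letters of the motif, which are CCAAT and CCACG (CCAC in Pdia3, Pdia4 and the second stretch of Herpud1) and, in the first stretch of Herpud1, TTGCATCA and then the parts of ERSE-II. The stretches lie at chr8:94386309-94386395 and chr8:94386403-94386436 (both plus strand) for Herpud1, chr2:34772017-34772051 (plus) for Hspa5, chr10:86705630-86705664 (minus) and chr10:86705525-86705559 (plus) for Hsp90b1, chr12:17266483-17266517 (plus) for Pdia6, chr8:84847067-84847101 (plus) for Calr, chr11:50325792-50325826 (minus) for Canx, chr2:121413865-121413898 (plus) for Pdia3 and chr6:47813594-47813627 (plus) for Pdia4. The second match of Hsp90b1 and those of Calr and Pdia4 run opposite to the gene.
Herpud1, first stretch: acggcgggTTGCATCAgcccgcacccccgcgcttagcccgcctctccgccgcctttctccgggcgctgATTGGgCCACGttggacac
Herpud1, second stretch: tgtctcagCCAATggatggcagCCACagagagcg
Hspa5: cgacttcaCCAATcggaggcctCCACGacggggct
Hsp90b1, first match: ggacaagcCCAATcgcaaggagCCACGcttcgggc
Hsp90b1, second match: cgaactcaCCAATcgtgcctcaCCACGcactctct
Pdia6: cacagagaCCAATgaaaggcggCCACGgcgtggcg
Calr: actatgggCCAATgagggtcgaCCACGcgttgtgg
Canx: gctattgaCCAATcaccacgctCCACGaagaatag
Pdia3: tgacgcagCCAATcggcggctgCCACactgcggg
Pdia4: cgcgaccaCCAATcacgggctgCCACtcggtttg

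Genes with the full ERSE were also compared between the diets. Of the 37 genes with it, 30 were in the count table and 6 were tested, the 5 named above and the BiP co-chaperone Dnajc3. Of these 6, 0 were called (2.91% of all genes tested were), 4 had log2 fold changes above 0, and the median was 0.30. Dnajc3 had 47.1 ± 8.40 CPM in FO mice and 31.7 ± 21.2 CPM in CO mice (SD, n = 5 per diet), and differed by 0.42 on the log2 scale (standard error 0.38). It was named after its values had been seen. Genes that share the full element did not all vary alike, since Calr and Canx had r = 0.95 but Hspa5 had 0.18 with Calr and 0.21 with Canx.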

How the data were processed

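Lung RNA of 10 mice was sequenced as single-end reads from TruSeq RNA v2 or riboZero libraries (which mouse had which is not given in the sources used here). The authors aligned reads to mm10 (GRCm38) with STAR 2.4.0f1, sorted them with SAMtools 0.1.19, counted them per gene symbol with htseq-count, and deposited raw counts without normalization.

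The quasi-likelihood test of edgeR 4.0.16 (R 4.3.3) was run across all genes, with TMM scaling and the default filter (count minimum 10, total minimum 15), with Benjamini-Hochberg adjustment. Standard errors and 95% intervals were derived from the quasi-likelihood F. Log2 CPM used a prior count of 2. Exact permutation tests were two-sided, on log2(CPM + 1) for single genes and, for correlations, on log2 CPM over all 14400 arrangements within diets. Exon lengths, strands and overlapping genes came from GENCODE M21, and gene coordinates and promoters from RefSeq GRCm38.p6. The scripts were tested on simulated data.

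The genes and lists were chosen with earlier results of these data known. Named genes were the 10 genes, list genes called or among the 2 most abundant of their list, and the 5 with the highest Pearson r to Herpud1 or to the mean of the others. Alternatives were RLE scaling factors, DESeq2 1.42.0, all genes with any count, Rn45s left out, a replicate block, leaving out each mouse, and leaving out both Malat1-rich mice. The deposited counts hold 25 symbols written as dates, so Sep15 and March6 were not matched.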

Additional observations from a re-analysis of the deposited data

Results flagged for a closer look

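Of 26 groups of 5 mice examined, formed within each diet by the 9 genes that passed the filter and by 4 measures of the libraries (shares of Rn45s, of Malat1 and of the 10 genes, and counts outside Rn45s), 3 had a mouse that stood apart (a Dixon ratio over 0.71), where chance gives about 1.3. In the CO group, Xbp1 reached 52.6 CPM in CO mouse 3, against at most 26.6 CPM in the other 4 mice, on 24 counts. The share of Malat1 among counts outside Rn45s was 8.53% in FO mouse 2 and 6.15% in CO mouse 5, each far above the other mice of its diet. Since both diets hold such a mouse, the fits without both are given beside the results.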

How the results depend on the processing

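The number of genes called, 71 in the edgeR test, was 587 with all genes with any count, where more genes were tested, and ran from 54 without FO mouse 1 to 154 without FO mouse 2. The cause of the latter was not tested. Pdia6, Hspa5 and Canx kept their direction in all 16 alternatives, and Pdia4 did in the 10 in which it was tested. Herpud1 kept its direction in all 16 as well, but these refit the counts from which it was picked. Signs changed as follows, none past the threshold. Pdia3 was -0.0586 without both Malat1-rich mice and ran from -0.0419 to 0.35 with each mouse left out. With each mouse left out, Hsp90b1 ran from -0.36 to 0.13, Calr from -0.20 to 0.0026, Xbp1 from -0.11 to 0.37 and Ddit3 from -0.37 to 0.66. Ddit3 was also 0.18 with DESeq2 and 0.30 with a replicate block.

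Same-numbered FO and CO mice are different animals. The deviations of their values from the diet means had a mean correlation of -0.12 (5 pairs, -0.41 to 0.03), against 0.03 for the other 20 pairs. These values gave no sign of a pairing by mouse number, and other pairings were not tested. With that number as a block, 55 genes were called, Hspa5 had a log2 fold change of 0.56 and moved past the unadjusted threshold, and Tmem66 (0.88) and Cct7 (0.55) were no longer called. Pdia4 and Xbp1 were not tested without both Malat1-rich mice, because they failed the filter there, and Pdia4 failed it in 5 of the 10 fits with 1 mouse left out as well. Low counts limit Ddit3, Pdia4, Xbp1 and the stress sensors most.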
